A study of Mus musculus with 6 samples.

Results

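The 10 genes described here encode the cyclins and kinases that carry a cell through G1 and into S phase, and 2 of the pocket proteins that hold that step back. They were taken by name from the read counts and comprise the D cyclins Ccnd1, Ccnd2 and Ccnd3, the E cyclins Ccne1 and Ccne2, the kinases Cdk4, Cdk6 and Cdk2, and the pocket proteins Rb1 and Rbl1. All 10 were found among 25033 gene symbols, and all 10 were among the 12978 genes that passed the filter on low counts. The cells were green fluorescent (GFP+) cells labelled haematopoietic stem cells (HSCs), sorted from the bone marrow of recipient mice. The labels give C57BL/6J as the strain and 6 months as the age in both groups. The 3 control libraries came from recipients of HSCs that had been given a control RNA, and the 3 inhibitor libraries from mice that received HSCs treated to inhibit miR-31-5p. This microRNA pairs with transcripts through its seed. The labels state neither the time from transplantation to sorting nor whether each library came from its own animal. The p-values therefore cover the spread among these 6 libraries, which may be technical.

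D cyclins are made in response to growth signals and bind CDK4 and CDK6, and these kinases start the phosphorylation of the pocket proteins RB1, p107 (Rbl1) and p130 (Rbl2). Phosphorylated pocket proteins release E2F transcription factors, which switch on the E cyclins and the genes of DNA synthesis. Cyclin E bound to CDK2 then completes the step, and inhibitors of the INK4 and CIP/KIP families oppose the kinases. In blood formation, stem cells rest mostly outside the cycle, CDK6 is the kinase associated with the speed at which they leave rest, and the D cyclins overlap in function.

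Libraries held 16873188 to 21245861 counts, which makes 3 counts equal to 0.141 to 0.178 CPM, counts scaled to a fixed library size. The lowest count of any of the 10 genes in any library was 370 (Ccne1, inhibitor library 3), so none was limited by detection. Control library 1 differed from the other controls by more than those differed from each other (chi-square per degree of freedom of 14.9 and 16.8, against 7.55), and counts of the precursor ribosomal RNA gene Rn45s ran from 3667 to 61656 in controls and from 1784 to 3145 in inhibitor libraries. Of 12 HSC marker genes, 10 passed the filter and 1 (Hoxb5) had no count in any library, and the markers' summed level was 988 to 1047 CPM in controls and 1077 to 1112 in inhibitor libraries. Of these HSC genes 4 were higher in the inhibitor group and 2 lower. Markers of some other cells moved between the groups: the summed level of 10 megakaryocyte and platelet genes was 1580 to 1784 CPM in controls and 3952 to 4083 in inhibitor libraries, that of 10 monocyte and macrophage genes 4137 to 4185 against 2608 to 2658, and that of 10 neutrophil genes 6483 to 7184 against 5730 to 5887. All 10 megakaryocyte genes, 1 of the monocyte genes and 5 of the neutrophil genes were higher in the inhibitor group, and 0, 4 and 4 were lower. Over all tested genes 20.4% were higher and 20.1% lower, against which the counts of HSC and other markers are to be read. The 10 erythroid genes summed to 5.84 to 7.40 CPM in controls and 18.7 to 21.1 in inhibitor libraries, and the 10 B cell genes to 19.2 to 20.9 against 11.6 to 12.5. Retnlg (neutrophil) and Vpreb3 (B cell) were at 0 throughout. The part of these shifts in the results below was not tested. In bulk RNA, fewer cells of a type and less RNA per cell cannot be told apart.

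Because the treatment was directed at miR-31-5p, its sequence and the matches to its seed in these genes are shown first. The mature sequence (RefSeq, GRCm38.p6, chr4:88910614-88910635, minus strand) is printed with seed bases 2 to 8 in capitals.
mmu-miR-31-5p: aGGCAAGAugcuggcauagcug
A match to the seed (TCTTGCC) was found in the longest annotated 3′ UTR of 2 of the 10 genes, Ccnd1 and Cdk2, and in 12.4% of 13306 genes with counts and a 3′ UTR in GENCODE M21. The median 3′ UTR was 1647 bases in the 10 genes and 1082 bases in all of these. The stretches around the matches are printed in the sense of the transcript, with the match in capitals. The match in Ccnd1 lies at chr7:144931041-144931047 and that in Cdk2 at chr10:128698993-128698999, both on the minus strand of mm10.
Ccnd1: ttctggcacatTCTTGCCgctgcccccaa
Cdk2: ttcgccttttcTCTTGCCagccagttctg
The Cdk2 match is followed by an A, the form that makes an 8-base site, and the Ccnd1 match is not. Ccnd1 did not pass the test and Cdk2 fell, as given below. The 3′ UTR of Cdk6, at 10217 bases the longest of the 10, held no match. A match is a stretch of letters and not evidence of binding.

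The comparison asked which of the G1 genes differ in the sorted cells when the transplanted HSCs had received the inhibitor. Rb1, Ccnd3 and Ccnd2 were higher in the inhibitor group, Cdk4, Ccne2, Cdk2 and Ccne1 were lower, and Ccnd1, Cdk6 and Rbl1 did not pass the test. The rise of Rb1, the gene of the retinoblastoma protein, was the largest at 1.67-fold, and Cdk4 had the largest fall with all libraries, at 1.35-fold. Ccne2 fell more than Cdk4 in 3 settings: without control library 1 (log2 changes of -0.40 and -0.33), without control libraries 1 and 3 (-0.39 and -0.31) and after a correction for GC content and transcript length (-0.54 and -0.39). Thus 7 of 10 genes were called at an adjusted p of 0.05 (edgeR quasi-likelihood test, Benjamini-Hochberg over all 12978 genes), where 40.5% of all tested genes were called. The 3 higher genes stand against 20.4% of all genes and the 4 lower genes against 20.1%. The same 7 genes were those whose groups did not overlap, 3 with every inhibitor library higher and 4 with every one lower. Over all genes this was so for 52.4%, with 25.9% higher and 26.5% lower. The median size of the log2 change, sign ignored, was 0.31 over the 10 genes and 0.22 over all genes, and the signed medians were -0.05 and -0.01. Levels below are CPM scaled by TMM, a between-library normalisation, as mean ± SD of n = 3 libraries, and log2 changes are inhibitor against control ± SE. Gene positions are those of RefSeq on GRCm38.p6 (mm10).

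**Figure D1:**
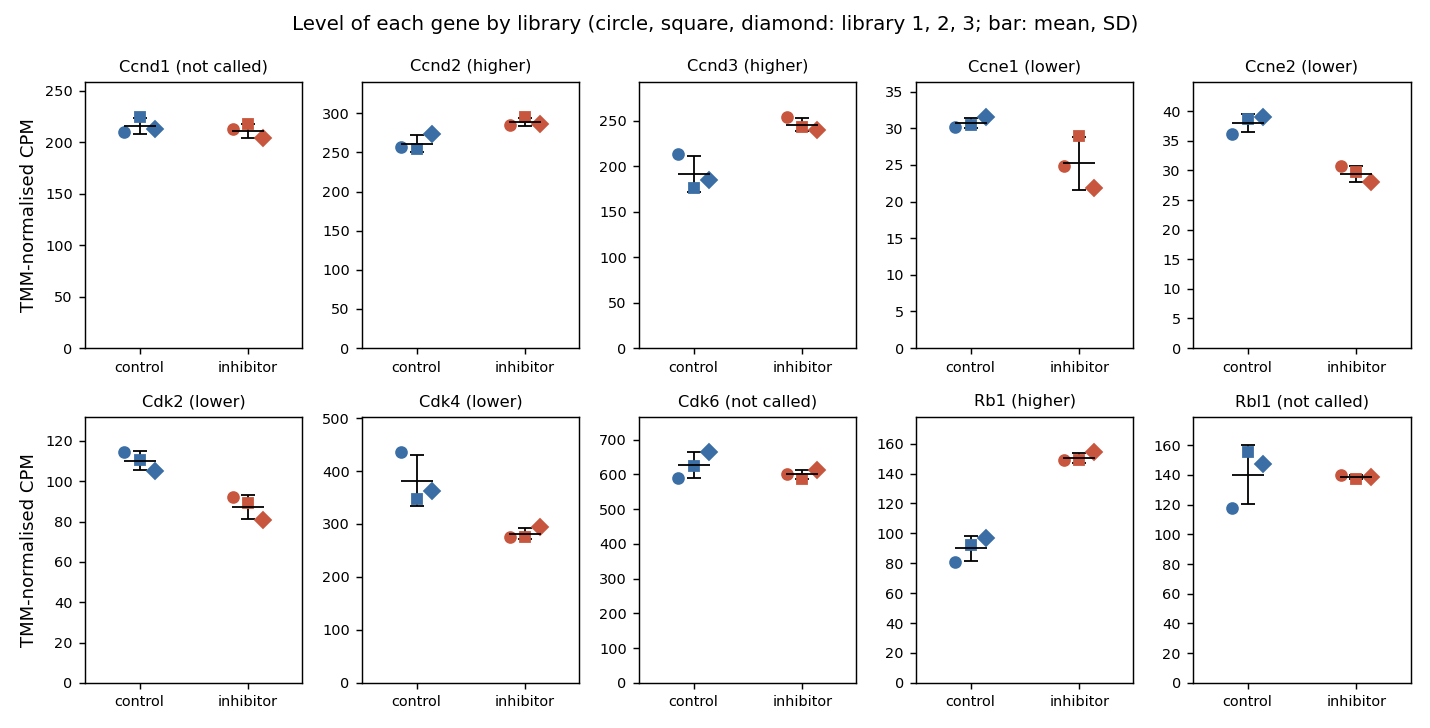
TMM-normalised CPM of each gene (y axis, from 0) in the 3 control and 3 inhibitor libraries (x axis); points are libraries and bars the mean and SD. Rb1 lies between 80.8 and 96.8 CPM in controls and between 149 and 155 in inhibitor libraries, while the groups of Ccnd1, Cdk6 and Rbl1 overlap.

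**Figure D2:**
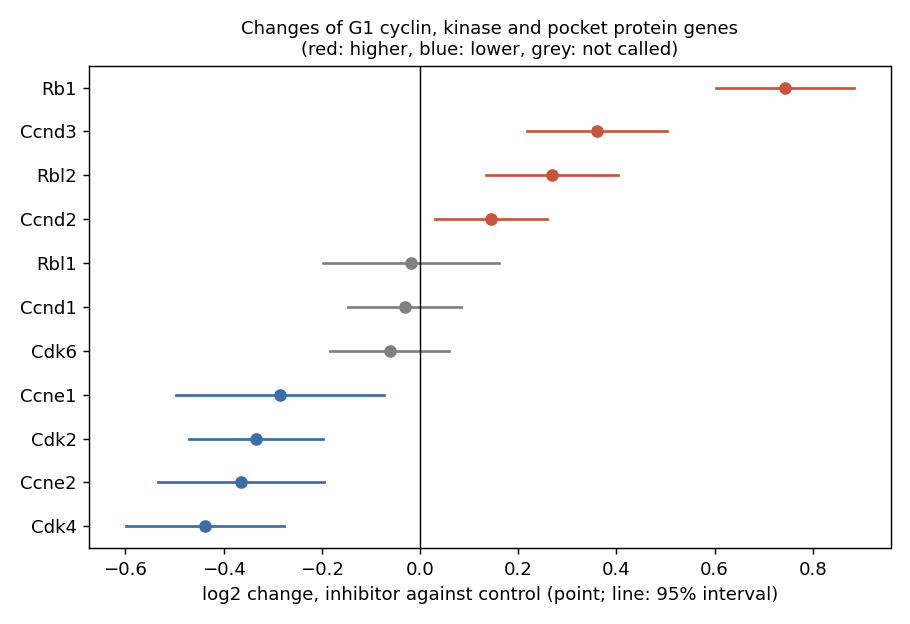
Log2 change of the 10 genes and of Rbl2, inhibitor against control (x axis), with 95% intervals, in order of size (y axis). Rb1 is highest at 0.74 and Cdk4 lowest at -0.44, and the intervals of Rbl1, Ccnd1 and Cdk6 include 0.

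Among the D cyclins Ccnd3 and Ccnd2 rose and Ccnd1 did not pass the test. Ccnd3 (chr17:47505051-47599689), the D cyclin known for its part in lymphoid and erythroid growth, stood at 214, 176 and 185 CPM in control libraries 1 to 3 and at 254, 244 and 239.9 CPM in inhibitor libraries 1 to 3. Every inhibitor library was above every control, and control library 1 was the nearest to them. Its mean CPM moved from 192 ± 19.9 to 246 ± 7.46 CPM, or a log2 change of 0.36 ± 0.07 (edgeR adjusted p = 0.000579), and the call held in all 17 alternative settings, with changes of 0.31 to 0.48. Ccnd2 (chr6:127125162-127152188), the D cyclin of cytokine-driven growth in many blood cells, stood at 256, 254 and 273 CPM in controls and at 286, 295 and 286 CPM in inhibitor libraries. The groups did not overlap, but the gap between them was smaller than the spread among the controls. On average it moved from 261 ± 10.6 to 289 ± 5.45 CPM, or a log2 change of 0.15 ± 0.05 (edgeR adjusted p = 0.0416, range over alternatives 0.00998 to 0.669). The call of Ccnd2 was lost in 6 of 17 settings. It was at 0.14 with all libraries and no filter on low counts. The change was 0.13 when control library 2 was left out, and 0.15, 0.13 and 0.16 when inhibitor library 1, 2 or 3 was. Correcting each library for GC content and transcript length put Ccnd2 at -0.02. Ccnd1 (chr7:144929931-144939831), the D cyclin induced by many mitogens, stood at 210.2, 224 and 213 CPM in controls and at 212, 217 and 204 CPM in inhibitor libraries. The groups overlapped throughout. Its change of -0.03 ± 0.05 had a 95% interval of -0.15 to 0.08, and without control library 2 it was at 0.00. The GC and length correction put Ccnd1 at -0.12 and past the threshold (edgeR adjusted p = 0.0285, range over alternatives 0.0285 to 0.982).

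The shares of the D cyclins were compared next. Scaled by the length of the longest transcript, Ccnd3 made up 48.6 ± 3.0% of the D cyclin reads in controls and 54.1 ± 0.87% in inhibitor libraries. The share of Ccnd1 was 28.6 ± 2.08% in controls and 24.2 ± 0.46% in inhibitor libraries, and that of Ccnd2 was 22.8 ± 1.35% and 21.8 ± 0.53%. The ratio of Ccnd1 to Ccnd3 was 0.512, 0.664 and 0.600 across control libraries 1 to 3, against 0.435, 0.464 and 0.443 across the inhibitor libraries in that order. It was lower in every inhibitor library, with a difference in log2 ratio of -0.40 (exact two-sided permutation p = 0.1, the smallest that 3 against 3 libraries allow, and 0.167 after adjustment over the 5 ratios computed). The ratio of Ccnd2 to Ccnd3 changed by -0.22 with overlapping groups (exact two-sided permutation p = 0.2, adjusted 0.25).

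Both E cyclins, which activate CDK2 late in G1 and are themselves E2F targets, were lower. Ccne2 (chr4:11190433-11204779) stood at 36.2, 38.6 and 39.0 CPM in controls and at 30.7, 29.7 and 28.0 CPM in inhibitor libraries. No inhibitor library reached the lowest control. Group means went from 38.0 ± 1.53 to 29.5 ± 1.36 CPM, or a log2 change of -0.37 ± 0.08 (edgeR adjusted p = 0.00198), called in all 17 settings at -0.54 to -0.33. Ccne1 (chr7:38097984-38107490) stood at 30.2, 30.4 and 31.5 CPM in controls and at 24.8, 28.9 and 21.9 CPM in inhibitor libraries. The controls were close together and the inhibitor libraries were not, with library 2 near the controls. The mean went from 30.7 ± 0.72 to 25.2 ± 3.56 CPM, or a log2 change of -0.29 ± 0.10 (edgeR adjusted p = 0.032, range over alternatives 0.00963 to 0.169). The call of Ccne1 was lost in 5 settings: without control library 2 (-0.29) or 3 (-0.26), without inhibitor library 1 (-0.27) or 3 (-0.19), and without control libraries 1 and 3 together (-0.27). The ratio of Ccne1 to Ccne2 ran from 1.22 to 1.29 in the controls and from 1.21 to 1.51 in the inhibitor libraries, where library 2 was the highest. A difference between the E cyclins in their response was not detectable: the log2 ratio moved by 0.07 with overlapping groups (exact two-sided permutation p = 0.9, adjusted 0.9), and by -0.03 without inhibitor library 2.

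Of the kinases, Cdk4 and Cdk2 fell and Cdk6 did not pass. Cdk4 (chr10:127063535-127067288), partner of the D cyclins, was the most abundant of the 10 per length. It stood at 436, 348 and 362 CPM in control libraries 1 to 3 and at 276, 276 and 294 CPM in inhibitor libraries 1 to 3. The groups did not overlap, and control library 1 lay far above the other controls. Its mean CPM moved from 382 ± 47.6 to 282 ± 10.7 CPM, or a log2 change of -0.44 ± 0.08 (edgeR adjusted p = 0.000361), called in all 17 settings at -0.50 to -0.31 and at -0.33 without control library 1. Cdk2 (chr10:128697938-128705051), partner of the E cyclins, stood at 115, 110.3 and 105 CPM in controls and at 92.0, 89.3 and 80.6 CPM in inhibitor libraries. All 3 inhibitor libraries were below all controls. On average it moved from 110.1 ± 4.69 to 87.3 ± 5.98 CPM, or a log2 change of -0.33 ± 0.06 (edgeR adjusted p = 0.000752), called in all 17 settings at -0.38 to -0.28.

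Cdk6 (chr5:3341004-3531008), the other partner of the D cyclins, had the most reads of the 10 genes and the longest transcript, 11522 bases. It stood at 590.3, 623 and 665 CPM in controls and at 602, 586 and 612 CPM in inhibitor libraries. The inhibitor libraries fell within or just under the range of the controls. The change was -0.06 ± 0.06, with a 95% interval of -0.18 to 0.06. Without control library 1 it was at -0.10 and past the threshold, and the GC and length correction moved it to -0.36 (edgeR adjusted p = 0.0311 and 2.50e-07, range over alternatives 2.50e-07 to 0.907). That correction also moved the median of all genes from -0.01 to -0.08 and the share of called genes that were higher from 50.3 to 33.6%. The ratio of Cdk6 to Cdk4 per length was 0.167, 0.221 and 0.227 across control libraries 1 to 3, against 0.269, 0.262 and 0.256 across the inhibitor libraries in that order. It was higher in every inhibitor library, by 0.37 in log2 ratio (exact two-sided permutation p = 0.1, adjusted 0.167), or by 0.23 without control library 1.

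The promoter of Cdk4 is shown because few promoters hold as many E-boxes, here the sequence CACGTG. RefSeq promoter windows, 250 bases before to 50 bases after the start on GRCm38.p6, matched 6 of the 10 genes, with 2 windows for Ccnd3. Ccnd1, Ccnd2, Ccne2 and Rb1 had no entry. The window of Cdk4 (chr10:127063285-127063584, plus strand) is shown with each E-box CACGTG, the sequence bound by MYC with MAX and by related factors, in capitals.
Cdk4: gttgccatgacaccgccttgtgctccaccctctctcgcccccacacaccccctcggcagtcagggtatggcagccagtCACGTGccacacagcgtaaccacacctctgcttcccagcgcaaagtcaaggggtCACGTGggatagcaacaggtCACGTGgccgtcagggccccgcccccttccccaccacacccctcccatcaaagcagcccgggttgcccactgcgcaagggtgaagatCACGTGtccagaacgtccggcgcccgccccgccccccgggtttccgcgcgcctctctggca
The E-boxes begin 172, 118, 98 and 11 bases before the start. At least 4 such boxes were found in 8 of 32851 promoter windows (0.0244%) and at least 1 in 7.15%. Among the windows of the 10 genes only Cdk6 held another, a single box. Cdk4 fell and Cdk6 did not pass the test. This motif was added after the windows had been read, so the share of 0.0244% is a description and no test. The transcript of Myc itself, a factor that binds this box, was at 182 ± 2.98 CPM in controls and 115 ± 5.83 in inhibitor libraries, a log2 change of -0.66 ± 0.06 (edgeR adjusted p = 2.08e-07). A match to a motif is a description and shows no binding. The part of Myc in the change of Cdk4 was not tested.

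E2F-type motifs (TTTCGCGC, TTTGGCGC, TTTCCCGC or TTTGCCGC, either strand) were found in the windows of Rbl1 and Cdk2, and in 2.26% of all windows. They are printed with 20 bases on each side and the motif in capitals. The stretch of Rbl1 is chr2:157204525-157204572 and that of Cdk2 is chr10:128705164-128705211, both on the minus strand, and in Cdk2 the motif TTTCCCGC reads on the opposite strand of the gene.
Rbl1: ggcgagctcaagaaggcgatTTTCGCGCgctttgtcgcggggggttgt
Cdk2: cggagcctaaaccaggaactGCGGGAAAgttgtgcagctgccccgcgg
The motif begins 18 bases before the start in Rbl1 and 140 bases before it in Cdk2. Of these genes Cdk2 fell and Rbl1 did not pass the test. No E2F-type motif was found in the windows of Ccne1, Ccnd3, Cdk4 and Cdk6. The element TTTGAA (CHR), read by the complex that pocket proteins form in resting cells, was in none of the 7 windows and in 17.9% of all windows.

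Rb1 (chr14:73192858-73325951), whose protein restrains E2F until it is phosphorylated, changed more than any other of the 10 genes. It stood at 80.8, 92.5 and 96.8 CPM in control libraries 1 to 3 and at 149, 149 and 155 CPM in inhibitor libraries 1 to 3. All inhibitor libraries were above all controls, and the gap was wider than the range of either group. Group means went from 90.0 ± 8.28 to 151 ± 3.35 CPM, or a log2 change of 0.74 ± 0.07 (edgeR adjusted p = 3.28e-07), called in all 17 settings at 0.58 to 0.80. Rbl1 (chr2:157145893-157204534), which encodes p107, the pocket protein of cycling cells, stood at 118, 156 and 147 CPM in controls and at 139.8, 137 and 139 CPM in inhibitor libraries. Control library 1 was the lowest of all and the other controls the highest. The change was -0.02 ± 0.08, with a 95% interval of -0.20 to 0.16. Without control library 1 the change of Rbl1 was -0.13 and past the threshold (edgeR adjusted p = 0.0248, range over alternatives 0.00528 to 0.953), and without control library 2 or 3 it was at 0.07 and 0.02. It also passed after the GC and length correction (-0.18). Without control libraries 1 and 3 together, which leaves a lone control, the change of Rbl1 was -0.17. Rbl2, not one of the 10, encodes p130, the pocket protein of resting cells. It rose from 86.0 ± 5.82 to 104 ± 3.43 CPM, or a log2 change of 0.27 ± 0.06 (edgeR adjusted p = 0.00346). Its change was 0.13 after the GC and length correction.

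The order of Rb1 and Rbl1 differed between the groups. Per length, Rb1 made up 29.5 ± 1.07% of the pocket protein reads in controls and 39.6 ± 0.82% in inhibitor libraries, Rbl1 43.7 ± 1.78% and 34.7 ± 0.36%, and Rbl2 26.7 ± 1.13% and 25.7 ± 0.86%. The ratio of Rbl1 to Rb1 was 1.39, 1.60 and 1.45 across control libraries 1 to 3, against 0.896, 0.881 and 0.854 across the inhibitor libraries in that order. It was above 1 in every control and below 1 in every inhibitor library, a difference in log2 ratio of -0.75 (exact two-sided permutation p = 0.1, adjusted 0.167).

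Levels can be compared between the genes only per length. In controls the order was Cdk4 (269 ± 33.5 CPM per kilobase), Ccnd3 (96.8 ± 10.03), Ccnd1 (56.8 ± 1.99), Cdk6 (54.4 ± 3.27), Cdk2 (48.1 ± 2.05), Ccnd2 (45.3 ± 1.84), Rbl1 (28.7 ± 4.07), Rb1 (19.3 ± 1.78), Ccne1 (15.7 ± 0.37) and Ccne2 (12.6 ± 0.50). The libraries of Ccnd1 and Cdk6 overlapped, as did those of Cdk2 and Ccnd2. The other neighbours did not overlap. In inhibitor libraries Ccnd2 (50.1 ± 0.94) stood above Cdk2 (38.2 ± 2.61) and Rb1 (32.4 ± 0.72) above Rbl1 (28.4 ± 0.24), with no overlap in either pair. Both ends of the order stayed in place, with Cdk4 at 199 ± 7.53 and Ccne2 at 9.74 ± 0.45 CPM per kilobase. A gene whose cells use a transcript shorter than the longest one is set too low on this scale.

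**Figure D3:**
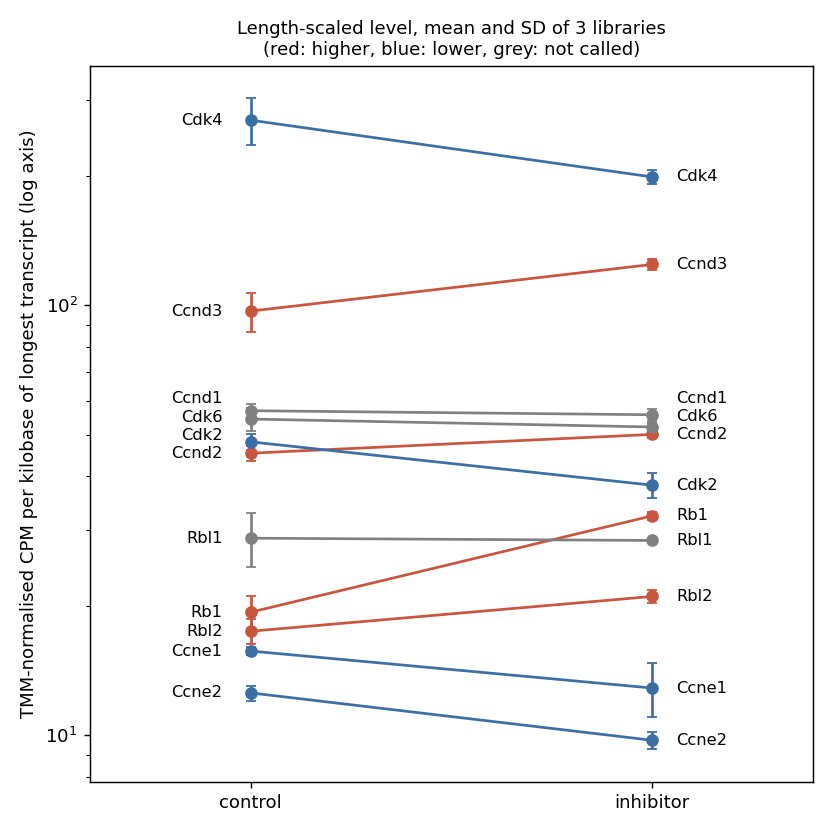
TMM-normalised CPM per kilobase of the longest transcript (log y axis) of the 10 genes and Rbl2 in the control and inhibitor groups (x axis), as mean and SD of 3 libraries. The line of Rb1 crosses that of Rbl1, from 19.3 to 32.4 against 28.7 to 28.4.

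Reads from overlapping genes on the opposite strand could enter these counts, since the strand of counting is not given in the sources used here. In GENCODE M21, exons of Tspan31 covered 19.7% of the exonic bases of Cdk4, those of Ints8 17.4% of Ccne2, and those of the gene listed as LTO1 23.4% of Ccnd1. None of these 3 passed the test, with log2 changes of 0.02 ± 0.06, 0.12 ± 0.07 and -0.04 ± 0.07. Exons of Lpar6 and Rcbtb2 covered 6.78 and 8.11% of those of Rb1. Lpar6 was called higher (0.28 ± 0.07) and Rcbtb2 did not pass (0.19 ± 0.09). Bysl covered 4.11% of the exonic bases of Ccnd3 and was called lower (-0.25 ± 0.07). The part of reads from overlapping genes in these counts was not tested.

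The genes whose profile over the 6 libraries was closest to that of Rb1, among 9431 genes with at least 10 CPM, were Rel, Bmp2k and Dock9, with a root mean square difference in centred log2 CPM of 0.022, 0.034 and 0.038. Those closest to Cdk4 were Npm3, Farsa and 9130221H12Rik, at 0.024, 0.025 and 0.026. These are descriptions over 6 libraries that share their depth and scaling.

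The other genes of the pathway were counted from 6 lists made by role. Of the 90 genes in them, all tested, 13 were higher, 43 lower and 34 were not called, with a median log2 change of -0.17 against -0.01 for all tested genes. Of all tested genes 20.4% were higher and 20.1% lower, against which the counts of each list below are to be read. The 13 higher genes of 90 are below the share of 20.4%. The 43 lower genes, 27 of them classic E2F targets, are above the share of 20.1%. The called genes of the CDK inhibitor list were all higher and those of the E2F target list all lower.

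Of 7 CDK inhibitor genes, 5 were higher, 0 lower and 2 not called, with a median of 1.18. Cdkn1a, which encodes p21, an inhibitor of CDK2, rose by 1.21 ± 0.06. Cdkn1c, which encodes p57, a CIP/KIP inhibitor of resting stem cells, went from 5.76 ± 0.76 to 13.05 ± 2.01 CPM (1.18 ± 0.15). Cdkn2a, whose symbol covers p16, an inhibitor of CDK4 and CDK6, and the unrelated p19ARF, went from 3.57 ± 0.48 to 9.32 ± 1.16 CPM (1.39 ± 0.16). Cdkn2b, which encodes p15 and is named here because it completes the count, went from 1.27 ± 0.08 to 4.53 ± 0.95 CPM (1.83 ± 0.24). Cdkn1b, which encodes p27, moved least of the called inhibitors, from 56.0 ± 0.90 to 65.2 ± 6.94 CPM (0.22 ± 0.08, edgeR adjusted p = 0.0303, range over alternatives 0.0113 to 0.173). Its call was lost in 5 settings, among them those without control library 2 (0.21) or 3 (0.23) and without inhibitor library 2 (0.24) or 3 (0.13), and it was at 0.13 after the GC and length correction. Cdkn2c, which encodes p18, did not pass (-0.16 ± 0.09).

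Of 9 regulators of the G1 kinases, 3 were lower, 0 higher and 6 not called. Cdc25a, the phosphatase that removes the inhibitory phosphate from CDK2, went from 94.3 ± 2.86 to 64.0 ± 3.53 CPM (-0.56 ± 0.06). Cdc37, the HSP90 partner that loads kinases such as CDK4, went from 257 ± 37.1 to 207 ± 1.08 CPM (-0.32 ± 0.08, or -0.19 without control library 1 and -0.16 without control libraries 1 and 3). Cdkn3, a phosphatase that acts on CDK2, fell by 0.42 ± 0.11 on the log2 scale. Its call held in 16 of 17 settings, and its log2 change was -0.34 without control libraries 1 and 3. Among 11 genes of the degradation and assembly of G1 regulators, 2 were lower, 1 higher and 8 not called. Skp2, the ubiquitin ligase subunit that recognises p27, went from 50.3 ± 1.74 to 37.7 ± 1.51 CPM (-0.42 ± 0.07). Its cofactor Cks1b fell by 0.47 ± 0.06 on the log2 scale, and the scaffold gene Cul1 rose by 0.19 ± 0.06. The call of Cul1 was lost without inhibitor library 1 (0.19) or 2 (0.18), without control libraries 1 and 3 together (0.12) and after the GC and length correction (0.08).

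The partners of the pocket proteins moved in both directions. Of 18 genes of E2F, DP and DREAM, the complex that pocket proteins form with E2F and DP, 9 were lower, 3 higher and 6 not called, with a median of -0.19. The lower genes included the activating E2f2 (-0.59 ± 0.09) and E2f1, which went from 78.3 ± 2.81 to 58.4 ± 6.37 CPM (-0.42 ± 0.08), and the E2F-induced repressor E2f8 (-0.41 ± 0.08). The higher genes were Rbl2, the DP subunit Tfdp2 (0.37 ± 0.07, or 0.14 after the GC and length correction) and Dyrk1a, the kinase that assembles DREAM (0.28 ± 0.06, or 0.12 after that correction). The other DP gene, Tfdp1, was lower, from 344 ± 9.65 to 289 ± 6.01 CPM (-0.25 ± 0.05). Lin52, which encodes a subunit of DREAM, was also lower (-0.40 ± 0.10). E2f4, the E2F that pairs with p130 and p107, did not pass (-0.12 ± 0.06). Tfdp1, Lin52 and E2f4 were named after their values were seen.

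Of 10 genes of growth signals to the D cyclins, 4 were higher, 2 lower and 4 not called. Myc fell, as given above. Foxo3, a forkhead factor active in resting HSCs, went from 53.4 ± 2.06 to 72.1 ± 5.31 CPM (0.43 ± 0.07). Foxo1 rose by 0.38 ± 0.09 (0.26 and not past the threshold without control libraries 1 and 3, and 0.23 after the GC and length correction), and Gsk3b, a kinase that marks cyclin D1 for destruction, rose by 0.31 ± 0.06 (0.06 and not past the threshold after the GC and length correction). Foxm1, a factor of G2 and mitosis genes, changed by -0.19 ± 0.06, a call lost without control library 3 (-0.15) or any 1 inhibitor library (-0.18 to -0.19), and it was at -0.28 after the GC and length correction.

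Of 35 classic E2F target genes, 27 were lower, 0 higher and 8 not called, with a median of -0.29. Orc1, a subunit of the origin recognition complex, went from 25.0 ± 1.73 to 15.2 ± 0.46 CPM (-0.72 ± 0.10). Cdc6, which loads the MCM helicase, and Uhrf1, a partner of the maintenance DNA methyltransferase, were at -0.59 ± 0.06 and -0.48 ± 0.06. Of 10 proliferation markers, 6 were lower, 0 higher and 4 not called, against 20.1% lower and 20.4% higher over all tested genes. Their summed level was 2324 to 2693 CPM in controls and 2284 to 2377 in inhibitor libraries. The part of the proliferation markers in the changes of the E cyclins and E2F targets, which were also lower, was not tested. Cells in G1 and cells in S phase were not separated, so a change in the share of cycling cells and a change per cell cannot be told apart.

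**Figure D4:**
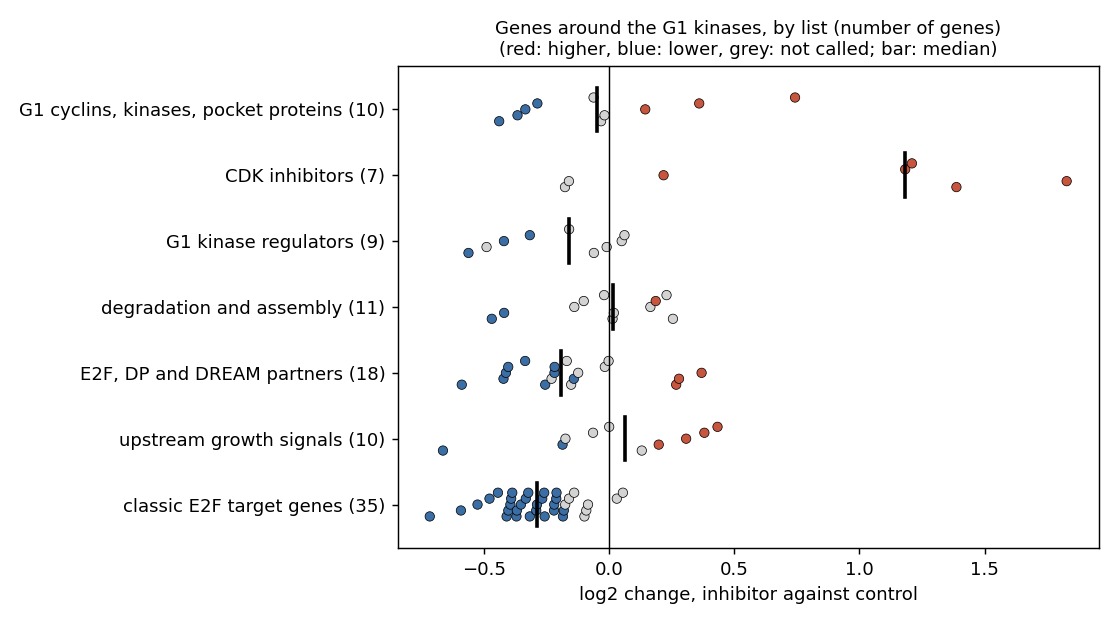
Log2 change, inhibitor against control (x axis), of the genes of each list (y axis, number of genes in brackets), 1 point per gene, with the median as a bar. The CDK inhibitors have a median of 1.18 and the classic E2F targets one of -0.29, with the 10 G1 genes spread on both sides of 0.

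**Figure D5:**
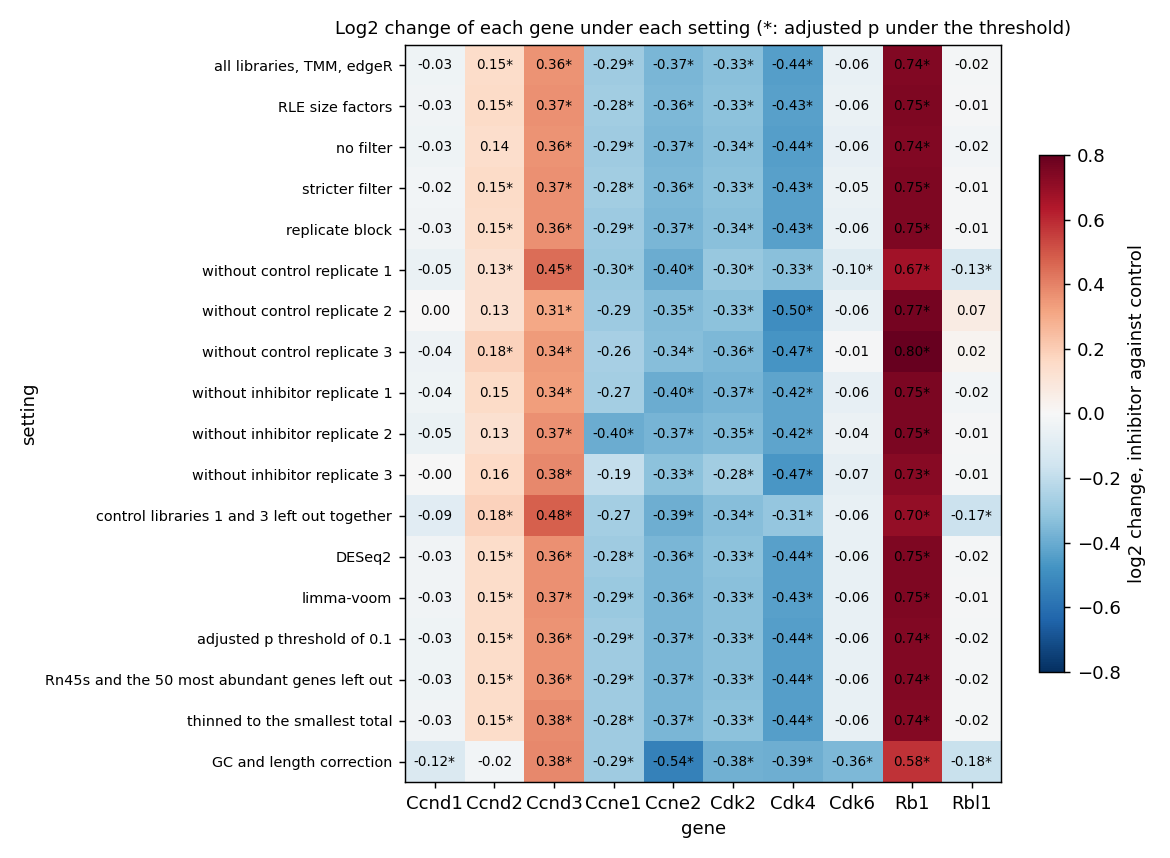
Log2 change of the 10 genes (x axis) under each setting (y axis), with the value in each cell and an asterisk where the adjusted p is under the threshold. Rb1, Ccnd3, Ccne2, Cdk2 and Cdk4 carry an asterisk in every setting, and Ccnd1, Cdk6 and Rbl1 in 1, 2 and 3 of 17 alternatives.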

How the data were processed

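The members and lists were chosen with earlier results of these data known. RNA libraries were made with an mRNA kit, per the labels' protocols, and bcl2fastq 2.20 and the build mm10 are named in the submitters' processing notes. Aligner, counting tool and strand were not given in the sources used. The authors deposited read counts per gene symbol, not normalised, together with RPKM, which per the file headers is scaled by the maximum transcript length. RPKM served only as an alternative for the ratios. There were 0 columns of samples of other series.

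Genes were kept by filterByExpr (minimum count 10, minimum total 15) and scaled by TMM, whose factors ran from 0.985 to 1.008. The robust quasi-likelihood test of edgeR (4.0.16, under R 4.3.3) was adjusted by Benjamini-Hochberg over 12978 genes. Libraries of a group differed by more than counting noise and each was 1 replicate. Ratios of paralogues used counts plus 0.5 per kilobase of the longest transcript and exact permutation tests (scipy 1.17.1, Python 3.11.15). Promoters and the miRNA are from RefSeq (GRCm38.p6), and 3′ UTRs from GENCODE M21. Named genes were the 10 members, Rbl2, Cdkn1a, Cdkn1b, Cdkn2c, the 3 genes with the smallest p past the threshold in each direction of each list, and the 3 genes most like the member with the largest rise and fall. In the lists, Cdkn2b, E2f4, Tfdp1 and Lin52 were named outside this rule. The fitting code was tested on simulated data. It recovered 27 of 50 genes changed 1.25-fold, 41 of 50 changed 1.5-fold, 47 of 50 changed 2-fold and 49 of 50 changed 4-fold. There were 23 false calls among 12853 genes tested, to be read against these recovered genes.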

Additional observations from a re-analysis of the deposited data

How the results depend on the processing

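Of the 7 called genes, Rb1, Ccnd3, Ccne2, Cdk2 and Cdk4 kept direction and call in all 17 settings. These were RLE scaling, 2 other filters, DESeq2 1.42.0, limma-voom 3.58.1, a threshold of 0.1, Rn45s and the 50 most abundant genes left out, thinning to the smallest total, a GC and length correction (loess, span 0.4, 98.5% of tested genes with a value), the replicate block and libraries left out. In the setting with control libraries 1 and 3 left out, the lone control is assumed to vary like the inhibitor libraries. The threshold of 0.1 was applied to the unchanged fit, so no gene called at 0.05 could lose its call there. With 1 library left out, 5 to 9 of the 10 genes and 4058 to 5692 of all genes were called. After the GC and length correction, 7 of the 10 genes and 4379 of all genes were lower, and the log2 change of Ccnd2 was -0.025. That correction removes any real change that goes with length. With 1 library left out, the log2 change of Ccnd1 ran from -0.052 to 0.0020 (without control library 2) and that of Rbl1 from -0.13 (without control library 1) to 0.068 (without control library 2), with 0.02 without control library 3. The log2 difference of the Ccne1 to Ccne2 ratio was -0.028 (without inhibitor library 2) to 0.13 with 1 library left out. E2F-type motifs were in 1.24% of windows when only the 150 bases before the start were searched, with the same count of 2 member genes. The cause of these changes was not tested. Same-numbered libraries did not deviate together (r = 0.085, 0.012 and 0.038), and not every library was closest to its own number. With the replicate block 7 of the 10 genes and 5673 of all genes were called, and no call among the 10 changed. Depth did not limit the 10 genes, but with 3 libraries a group the ratios cannot pass a threshold of 0.05.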
